A study of Mus musculus with 9 samples.

Results

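Gas1, Fras1, Icam4, Polr3g, Camk2n2, Spsb4, Bag2 and Retsat are 8 mouse liver genes whose signal was lower in livers given a virus carrying the human glucocorticoid receptor β isoform than in livers given a control virus or no virus. They were chosen from 16792 genes tested, out of 27656 named on the array, for this difference in these arrays. The 8 genes have 11 probes, 10 of which passed the filter on dim probes, and each gene was tested through at least 1 of them. Because the differences chose the genes, their values are given below as a description, without a test.

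Total liver RNA was hybridised to 9 single-colour Agilent mouse arrays, in 3 groups of 3. The untreated group is wild-type liver with no virus. The AAV-GFP group received an adeno-associated virus (AAV, a vector that delivers genes to liver among other tissues) with the gene of green fluorescent protein, and serves as the control for the vector. The AAV-hGRβ group received an AAV with the human glucocorticoid receptor β. All mice were male C57BL/6 animals aged 3 months, and lobe A of the liver was sampled in every group. The promoter, serotype and dose of the virus and the time from injection to sampling are not given in the sources used here, and the level of the human transgene was not analysed here. The labels do not say that replicates are separate animals, so a p-value speaks only of spread among these 9 samples, and that spread may be technical. The defining hepatocyte markers Alb, Apoa1, Cps1 and Hnf4a were well above background on all 9 arrays.

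The β isoform is a splice form of the glucocorticoid receptor that lacks the hormone-binding end of the α isoform and is known to oppose the α isoform in cultured cells. The 8 genes belong to no single pathway. Gas1, Fras1 and Icam4 encode proteins of the cell surface and matrix. Polr3g encodes a subunit of RNA polymerase III, which transcribes transfer RNAs and other short RNAs. Camk2n2 encodes an inhibitor of a calcium-dependent kinase, Spsb4 and Bag2 act in ubiquitin ligase and chaperone complexes, and Retsat encodes an enzyme of retinol metabolism.

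Signal is given on the log2 scale, with 0 at the 75th percentile of each array, and means are given ± SD with n = 3 arrays per group. Probe signals depend on the probe as well as on the RNA, so levels are compared only within a probe. In whole liver, fewer cells of a type and less RNA per cell cannot be told apart. Well above background were 54.0% to 82.0% of the gene spots of an array. Over the genes tested, pairs of arrays correlated at 0.973 to 0.988 within groups and at 0.950 to 0.989 between groups. The arrays were scanned on 2 days, with 2 arrays of each group on day 1 and 1 array of each on day 2, so every difference can also be taken within a day. On day 1 each slide held a single group, so group and slide cannot be told apart there, while on day 2 the AAV-GFP and AAV-hGRβ arrays shared a slide.

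For all 8 genes, each AAV-hGRβ array lay below all 6 other arrays. Such a pattern was found in 3.81% of the genes tested (639 genes), and nothing is read from the count for genes chosen for it. In the fit across all genes (limma, Benjamini-Hochberg adjustment, threshold 0.05), 13 genes (0.0774%) were lower with AAV-hGRβ than with AAV-GFP and 141 (0.84%) were higher, and the 8 genes are among the 13. Scaling to the array median in place of the 75th percentile gave 18 lower and 77 higher, and moved the median difference of all genes from 0.03 to -0.32. Of the other 5, Carmil1 and Fam222a have a symbol and 3 have only an identifier. Against untreated liver, 133 genes (0.792%) were lower and 435 (2.59%) higher (258 lower and 329 higher with the array median), and 6 of the 8 genes were past the threshold, without Icam4 and Spsb4. Between AAV-GFP and untreated liver limma called 0 genes (0.0%), while 1659 had an unadjusted p under 0.05, and none of the 8 was past the threshold. The AAV-hGRβ arrays are shared by 2 of these comparisons, and each control group is also shared by 2, so the comparisons are not independent.

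The choice had an edge at the adjusted threshold. Just inside it were Spsb4, with a log2 difference of -1.26, and AI627138, with -1.07. Just outside it were Hes6 (-0.85), a Hes-family transcription factor, and Ids (-0.72), a lysosomal sulfatase. Cyp39a1, a hydroxylase of oxysterols, and Sds, a serine-degrading enzyme of the liver, lay next, with differences of -1.20 and -1.18.

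**Figure D1:**
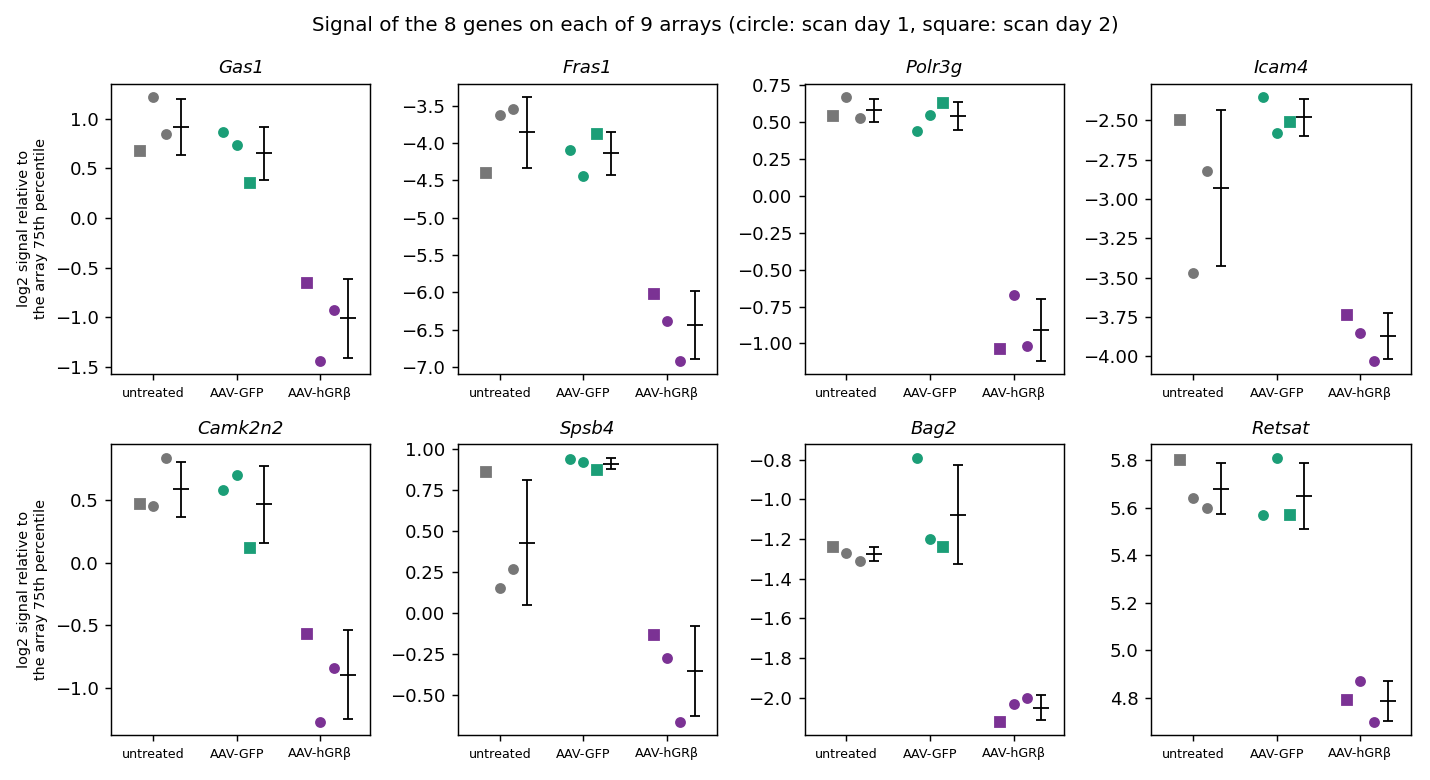
Log2 signal relative to the array's 75th percentile (vertical axis, a separate scale for each gene) for the 8 genes on each of 9 arrays, by group. Circles are arrays of scan day 1, squares are arrays of scan day 2, and bars are mean ± SD of 3 arrays. In every panel the 3 AAV-hGRβ arrays lie below the other 6.

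Gas1 encodes a lipid-anchored surface protein that can arrest growth and that binds hedgehog ligands together with Cdon and Boc. It is also related in structure to the receptors of the glial cell line-derived neurotrophic factor (GDNF) family. Its probe lies on chromosome 13 from 59283463 to 59283522 on the minus strand (mouse build mm7, as in the array files). Gas1 signal was 0.67, 1.22 and 0.85 on the untreated arrays, 0.87, 0.73 and 0.35 on the AAV-GFP arrays and -0.66, -1.44 and -0.93 on the AAV-hGRβ arrays. The untreated and AAV-GFP arrays overlapped, and the nearest AAV-hGRβ array lay 1.01 below the lowest of them. The group means were 0.92 ± 0.28, 0.65 ± 0.27 and -1.01 ± 0.40, in the same order. The AAV-hGRβ mean was 31.6% of the AAV-GFP mean on the linear scale, a log2 difference of -1.66 (SE 0.25). The difference was -1.99 on scan day 1 and -1.01 on day 2.

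Fras1 encodes a large matrix protein that forms a complex with Frem1 and Frem2 under epithelial sheets, and its loss causes Fraser syndrome in people and skin blisters in mouse embryos. Its probe lies on chromosome 5 from 95997549 to 95997608 on the plus strand (mm7). Fras1 signal was -4.40, -3.62 and -3.54 on the untreated arrays, -4.09, -4.44 and -3.87 on the AAV-GFP arrays and -6.02, -6.38 and -6.92 on the AAV-hGRβ arrays. It was well above background on all 6 control arrays and on none of the AAV-hGRβ arrays. Fras1 was the only one of the 8 genes with such a group. Set against a floor, its signal was at least 1.82-fold lower with AAV-hGRβ than with AAV-GFP, and at least 2.21-fold lower than in untreated liver. The floor was, on each dim array, the dimmest probe that the scanner software still called well above background, or this probe's own signal if higher. These bounds hold only for this floor and for the background subtraction as reported. With normexp after bright local backgrounds were replaced, the fitted difference from AAV-GFP was -0.55. Measured means were -3.85 ± 0.47, -4.13 ± 0.29 and -6.44 ± 0.46, and the fitted difference of -2.31 from AAV-GFP (SE 0.31) is not a bound. It was -2.39 on scan day 1 and -2.16 on day 2.

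Icam4 encodes an adhesion molecule of the immunoglobulin family, known in people as the Landsteiner-Wiener antigen of red blood cells, which binds integrins. Its probe lies on chromosome 9 from 20906638 to 20906697 on the plus strand (mm7) and is shown because it is the only reading of the gene:
Icam4 probe: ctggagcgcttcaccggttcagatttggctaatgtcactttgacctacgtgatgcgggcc
Icam4 signal was -2.50, -3.47 and -2.82 on the untreated arrays, -2.35, -2.58 and -2.51 on the AAV-GFP arrays and -3.74, -3.85 and -4.03 on the AAV-hGRβ arrays. The untreated arrays were spread widely, and the lowest of them lay 0.27 above the highest AAV-hGRβ array. The AAV-GFP arrays lay closer together, 1.16 or more above every AAV-hGRβ array. Means were -2.93 ± 0.50 in untreated, -2.48 ± 0.12 in AAV-GFP and -3.88 ± 0.15 in AAV-hGRβ liver. AAV-hGRβ was at 38.0% of AAV-GFP and at 52.0% of untreated liver, with log2 differences of -1.40 and -0.94 (SE 0.25 for both). The difference from AAV-GFP was -1.48 and -1.24 on the 2 scan days.

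Polr3g encodes a subunit of RNA polymerase III that is exchanged with its close relative Polr3gl, and the form with Polr3g is known from stem cells and tumour cells. All 3 of its probes lie on chromosome 13 of mm7, on the minus strand. The brightest, from 78716929 to 78716988, gave 0.54, 0.67 and 0.53 on the untreated arrays, 0.44, 0.55 and 0.63 on the AAV-GFP arrays and -1.04, -0.67 and -1.02 on the AAV-hGRβ arrays. The 6 control arrays lay within a narrow band and the AAV-hGRβ arrays at least 1.10 below it. Means were 0.58 ± 0.08, 0.54 ± 0.10 and -0.91 ± 0.21, so AAV-hGRβ stood at 36.7% of AAV-GFP, a log2 difference of -1.45 (SE 0.16). It was -1.33 on scan day 1 and -1.67 on day 2.

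A further Polr3g probe, from 78737573 to 78737632, gave -0.06, -0.29 and -0.32 in untreated, -0.63, -0.13 and -0.33 in AAV-GFP and -1.05, -1.10 and -1.64 in AAV-hGRβ liver. It lies apart from the first and again had all AAV-hGRβ arrays below all others, with a smaller difference from AAV-GFP of -0.90. Its sequence is shown as the separate reading of the gene:
Polr3g probe: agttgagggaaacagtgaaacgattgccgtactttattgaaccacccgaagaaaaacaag
The remaining probe, from 78718826 to 78718885, was dim and well above background on 3 untreated, 2 AAV-GFP and 2 AAV-hGRβ arrays. Its AAV-GFP values of -3.36, -4.07 and -4.82 overlapped its AAV-hGRβ values of -4.22, -5.09 and -4.39, with a difference of -0.48. The 3 probes thus had the same sign, and the dimmest did not separate the groups. With the mean of the 3 probes, the Polr3g difference was -0.94.

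Camk2n2 encodes a small protein that inhibits calcium/calmodulin-dependent protein kinase II. Its probe lies on chromosome 16 from 20169289 to 20169348 on the minus strand (mm7). Camk2n2 signal was 0.47, 0.45 and 0.84 on the untreated arrays, 0.58, 0.70 and 0.12 on the AAV-GFP arrays and -0.57, -1.27 and -0.84 on the AAV-hGRβ arrays. Controls overlapped, and the gap to the nearest AAV-hGRβ array was 0.69. Means were 0.59 ± 0.22, 0.47 ± 0.31 and -0.89 ± 0.35, with AAV-hGRβ at 38.9% of AAV-GFP (log2 difference -1.36, SE 0.24). Within scan day 1 the difference was -1.70, and within day 2 it was -0.69. As with Gas1, the day 2 arrays of the AAV-GFP and AAV-hGRβ groups, which lay on the same slide, were the closest to each other.

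Spsb4 encodes an adaptor with a SOCS box that brings substrates such as inducible nitric oxide synthase to a ubiquitin ligase. Its brighter probe lies on chromosome 9 from 96585129 to 96585188 on the minus strand (mm7). Spsb4 signal was 0.86, 0.15 and 0.27 on the untreated arrays, 0.94, 0.92 and 0.87 on the AAV-GFP arrays and -0.13, -0.27 and -0.66 on the AAV-hGRβ arrays. Spsb4 was the only one of the 8 genes whose AAV-GFP arrays all lay above its untreated arrays (5.76% of all genes had such a rank order), with 0.87 and 0.86 the nearest pair. Means were 0.43 ± 0.38, 0.91 ± 0.04 and -0.35 ± 0.28. AAV-hGRβ was at 41.8% of AAV-GFP and at 58.3% of untreated liver, with log2 differences of -1.26 and -0.78 (SE 0.23 for both). The difference from AAV-GFP was -1.39 and -0.99 on the 2 scan days.

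A second Spsb4 probe, from 96635784 to 96635843, was removed by the filter, being well above background on 1 untreated, 1 AAV-GFP and 2 AAV-hGRβ arrays. It gave -3.97, -6.39 and -7.18 in untreated, -4.93, -7.32 and -4.09 in AAV-GFP and -3.36, -6.40 and -3.32 in AAV-hGRβ liver. Its groups overlapped and its means had the opposite order, with a difference of 1.09 from AAV-GFP. The lower signal of Spsb4 thus rests on a single probe.

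**Figure D2:**
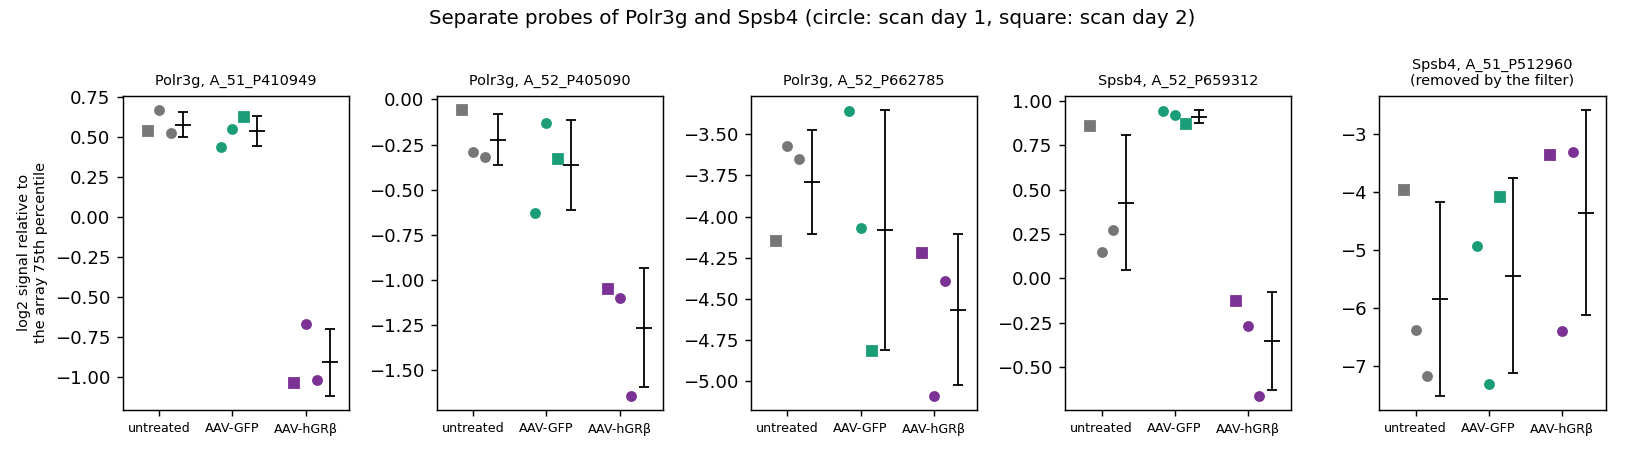
Log2 signal relative to the array's 75th percentile (vertical axis, a separate scale for each probe) of the 3 Polr3g and 2 Spsb4 probes on each array, by group, with circles for scan day 1, squares for scan day 2 and bars for mean ± SD of 3 arrays. The groups separate in the brighter 2 Polr3g probes and the brighter Spsb4 probe, and overlap in both dim probes when AAV-hGRβ is set against AAV-GFP.

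Bag2 encodes a cochaperone that binds heat shock proteins of the HSP70 family and inhibits the ubiquitin ligase Stub1 attached to them. Its probe lies on chromosome 1 from 33968870 to 33968929 on the minus strand (mm7). Bag2 signal was -1.24, -1.27 and -1.31 on the untreated arrays, -0.79, -1.20 and -1.24 on the AAV-GFP arrays and -2.12, -2.03 and -2.00 on the AAV-hGRβ arrays. Within the untreated and AAV-hGRβ groups the arrays were nearly level, and 1 AAV-GFP array stood above the other 2. Means were -1.27 ± 0.03, -1.08 ± 0.25 and -2.05 ± 0.06, so AAV-hGRβ was at 50.9% of AAV-GFP and 58.2% of untreated liver. The log2 differences were -0.97 and -0.78 (SE 0.17 for both). On the 2 scan days the difference from AAV-GFP was -1.02 and -0.88.

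Retsat encodes retinol saturase, which converts retinol to a dihydroretinol, and in mouse liver it has been linked to the activity of the carbohydrate response factor ChREBP (gene Mlxipl). Its probe lies on chromosome 6 from 72624593 to 72624652 on the plus strand (mm7) and is the only reading of the gene:
Retsat probe: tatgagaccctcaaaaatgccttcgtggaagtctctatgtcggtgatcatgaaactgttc
Retsat signal was 5.80, 5.64 and 5.60 on the untreated arrays, 5.57, 5.81 and 5.57 on the AAV-GFP arrays and 4.79, 4.87 and 4.70 on the AAV-hGRβ arrays. The groups were tight, with AAV-hGRβ arrays at least 0.69 below all others. Means were 5.68 ± 0.10, 5.65 ± 0.14 and 4.79 ± 0.09, with AAV-hGRβ at 55.0% of AAV-GFP and 54.0% of untreated liver (log2 differences -0.86 and -0.89, SE 0.15 for both). On the 2 scan days the difference from AAV-GFP was -0.90 and -0.78.

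Across the 7 genes measured above background in all groups, AAV-hGRβ signal thus lay between 31.6% (Gas1) and 55.0% (Retsat) of AAV-GFP signal. Since no AAV-hGRβ array overlapped another group, differences within a scan day are below 0 by the choice of the genes, and only their sizes carry information. The AAV-GFP minus untreated difference was above 0 for 3 genes (0.45 for Icam4, 0.48 for Spsb4 and 0.19 for Bag2) and below 0 for 5, down to -0.28 for Fras1. For 7 of the 8 genes the AAV-GFP and untreated arrays overlapped, and Spsb4 had the rank order found in 5.76% of all genes. The share of all genes that overlapped was not counted, so nothing is read from the 7. Over the 9 arrays, the 28 pairs of genes correlated at 0.73 to 0.97 (median 0.89), which includes the group difference they were chosen for.

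**Figure D3:**
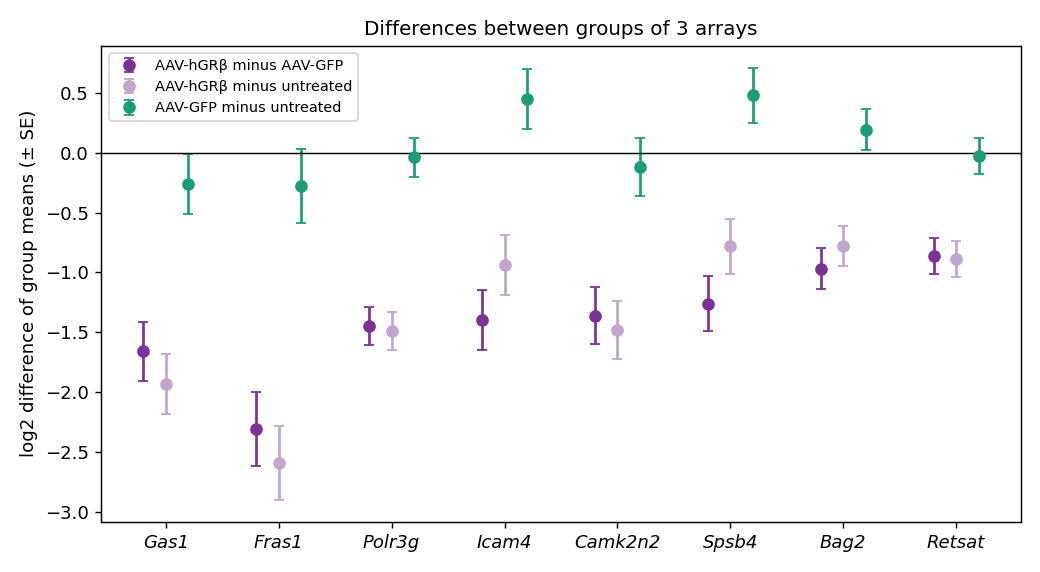
Log2 difference of group means ± SE (vertical axis) for the 8 genes in the 3 comparisons of groups with 3 arrays each, SE from limma. Both comparisons with AAV-hGRβ lie below 0 for every gene, from -0.78 to -2.59, and the AAV-GFP minus untreated differences lie between -0.28 and 0.48.

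The promoter sequence, 250 bases before and 50 from the start of the gene, was found for 7 of the 8 genes in a RefSeq table of assembly GRCm38.p6, all but Fras1. The GC box GGGCGG, searched on both strands, was present in 7 of 7, against 35.7% of 32851 promoters of the same length. These promoters had 54.3% (Icam4) to 79.0% (Camk2n2) G and C, against a median of 52.7%, and 13 to 43 CG dinucleotides against a median of 7. The promoter of Gas1 alone held the box CCAAT (37.4% of all promoters), 68 bases before the start. Retsat alone held TATAAA (13.6%), 30 bases before the start, and its GC box lay 45 bases before the start. None of the 7 held the half-site AGAACA of the glucocorticoid receptor (19.0% of all promoters, both strands) or the E-box CACGTG (7.15%). Matches to letters in this window say nothing about binding. The 250 bases before the start are shown for Gas1 and Retsat, which have the other boxes, and for Camk2n2, which has the most CG. Capitals mark the boxes named above, on either strand. They lie at chr13:60177536-60177785 (minus strand), chr6:72598352-72598601 (plus strand) and chr16:20621279-20621528 (minus strand), in that order.
Gas1: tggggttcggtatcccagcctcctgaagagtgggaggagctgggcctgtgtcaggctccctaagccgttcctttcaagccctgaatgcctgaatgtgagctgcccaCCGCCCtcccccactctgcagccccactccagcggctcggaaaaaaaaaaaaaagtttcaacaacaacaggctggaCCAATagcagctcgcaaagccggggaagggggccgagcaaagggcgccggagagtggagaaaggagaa
Retsat: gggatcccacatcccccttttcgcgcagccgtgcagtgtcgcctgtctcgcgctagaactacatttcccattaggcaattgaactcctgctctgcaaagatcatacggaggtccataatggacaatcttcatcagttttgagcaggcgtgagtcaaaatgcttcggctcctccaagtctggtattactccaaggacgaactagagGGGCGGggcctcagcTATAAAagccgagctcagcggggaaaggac
Camk2n2: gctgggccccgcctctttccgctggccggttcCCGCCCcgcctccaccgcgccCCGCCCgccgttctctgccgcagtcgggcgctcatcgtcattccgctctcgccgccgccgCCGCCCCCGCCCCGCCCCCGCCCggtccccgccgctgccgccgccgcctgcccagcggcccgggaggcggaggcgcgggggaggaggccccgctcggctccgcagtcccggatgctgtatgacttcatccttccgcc
In the Camk2n2 sequence the GC boxes lie between 218 and 120 bases before the start and partly run into each other.

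Close relatives of the 8 genes were tested in the same fit. Of 20 listed relatives, 19 were on the array and 15 were tested, and 0 passed between AAV-hGRβ and AAV-GFP (limma, lowest adjusted p = 0.164), where 0.917% of all genes did. Polr3gl, the alternative to Polr3g in RNA polymerase III, was at 1.99 ± 0.38 with AAV-GFP and 2.17 ± 0.18 with AAV-hGRβ, a difference of 0.18 (SE 0.25, limma adjusted p = 0.863). Camk2n1, the other inhibitor of the kinase, was at 1.50 ± 0.16 and 1.13 ± 0.06, a difference of -0.37 (SE 0.16, limma adjusted p = 0.423). Whether each member differs from its relative was not tested.

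Icam1, an adhesion molecule of activated endothelium and leukocytes, was at 1.02 ± 0.22 in untreated, 1.27 ± 0.14 in AAV-GFP and 1.92 ± 0.09 in AAV-hGRβ liver. It rose against untreated liver (log2 difference 0.90, limma adjusted p = 0.0341), the only one of the 15 relatives to pass there, where 3.38% of all genes did, and it passed in 8 of 20 alternatives. Against AAV-GFP it was higher by 0.65 without passing (limma adjusted p = 0.164). Icam4 thus had the opposite sign to Icam1 in both comparisons. Icam2 was level between the 2 AAV groups (difference 0.00, SE 0.29) and Icam5 differed by 0.38 (SE 0.34). The 5 relatives of Bag2, from Bag1 to Bag6, differed by -0.26 to 0.22, and Spsb2 and Spsb3 by -0.23 and -0.18, without passing. The GDNF family receptors Gfra1, Gfra3 and Gfra4, which resemble Gas1, differed by -0.40, 0.68 and 0.43. Frem1 and Frem2, the partners of Fras1, were on the array and did not pass the filter on dim probes, as was the case for Spsb1 and Gfra2.

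In the pathways around the surface and matrix genes, 0 of the genes tested passed between AAV-hGRβ and AAV-GFP. Cdon, Boc, Ptch1 and Gli1 of the hedgehog list and Ret of the GDNF list did not pass the filter on dim probes. These genes were therefore not tested. The median log2 difference of all genes was 0.03. The hedgehog pathway (13 tested) had a median of 0.15, and its smallest p-values belonged to the signal transducer Smo (0.38, limma adjusted p = 0.373), the ligand-release protein Disp1 (0.41) and the receptor Gpr161 (0.51). Over the alternatives the difference ran from 0.04 to 0.82 for Smo, from 0.07 to 0.51 for Disp1 and from -0.74 to 0.66 for Gpr161. The GDNF and RET list (6 tested) had a median of 0.21, led by the ligands Gdnf (1.05) and Nrtn (-0.33) and by Gfra3, without passing. Over the alternatives Gdnf ran from -0.26 to 1.69, Nrtn from -0.68 to -0.23 and Gfra3 from -0.59 to 1.14. The Fraser complex and basement membrane list (19 tested) had a median of -0.08. In it Agrn, a heparan sulfate proteoglycan, differed by 0.58, Col18a1, a basement membrane collagen, by -0.43, and Dag1, the dystroglycan receptor of laminin, by -0.61 (SE 0.31), none past the threshold. In the ICAM and integrin list (13 tested) the median was 0.38, with Itgb3 at -1.08 (SE 0.46) and Itga4 at 0.89 (SE 0.29), and 1 gene, Icam1, was higher than in untreated liver. Itgb3 has another kept probe that gave -0.15, and Itga4 has another that gave 1.73.

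The partners of the intracellular genes showed the same counts between the AAV groups, 0 higher and 0 lower. RNA polymerase III and its factors (33 tested) had a median of 0.01 and a range of -0.25 to 0.34. Its smallest p-values were those of the largest subunit Polr3a (0.24) and of the transcription factors Gtf3c4 (0.34) and Snapc4 (0.31). The CaM kinase family (14 tested, median -0.06) was led by Camk2n1, Camk1d (-0.59) and Camkv (0.76). Over its kept probes Camk1d ran from -0.59 to -0.16. The SPSB ligases and their substrates (11 tested, median 0.01) were led by Spsb2, the scaffold Cul2 (-0.26) and Fbxo45 (-0.28). The HSP70 system with its BAG cochaperones (33 tested, median -0.12) was led by the chaperones Hspa1l (1.04) and Dnajb5 (0.81) and by Stip1 (-0.31), which links HSP70 to HSP90. Dnajb5 has another probe that gave 0.07. Over the alternatives Hspa1l, a dim probe (means of -3.98 with AAV-GFP and -2.94 with AAV-hGRβ), ran from -0.59 to 1.23. Dnajb5 ran from -0.33 to 1.05 and Stip1 from -0.66 to 0.18. None of these named genes passed.

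Retinoid genes and the targets of ChREBP are the lists around Retsat. Of 39 retinoid genes tested, 0 passed between AAV-hGRβ and AAV-GFP, and the median was -0.18. Cyp26a1, which degrades retinoic acid, stood at 1.73 ± 0.10 in untreated, 2.74 ± 0.86 in AAV-GFP and 0.78 ± 0.92 in AAV-hGRβ liver, a difference of -1.95 from AAV-GFP (SE 0.51, limma adjusted p = 0.156). Aox3, an aldehyde oxidase, differed by -0.78 (limma adjusted p = 0.185) and Rbp7, a retinol-binding protein, by 1.13 (limma adjusted p = 0.26). Against untreated liver 1 retinoid gene rose, Rbp7, which was well above background on 0 of 3 untreated arrays and at least 2.32-fold higher with AAV-hGRβ (limma adjusted p = 0.0347). This call held in 8 of 19 alternatives, and with normexp the difference was -0.50 (limma adjusted p = 0.769). The median against untreated liver was -0.05, where that of all genes was 0.10.

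Of 22 genes in the ChREBP list, 0 passed between AAV-hGRβ and AAV-GFP, with a median of -0.25 and 18 of the 22 below 0, where 46.7% of all genes were. Fasn, the fatty acid synthase, was at 7.48 ± 0.45 in untreated, 6.80 ± 0.19 in AAV-GFP and 5.98 ± 0.08 in AAV-hGRβ liver. It fell against untreated liver by 1.50 (limma adjusted p = 0.0165) and differed by -0.82 from AAV-GFP (limma adjusted p = 0.199). Elovl6, a fatty acid elongase, was at 3.12 ± 0.39, 2.69 ± 0.37 and 1.65 ± 0.05. It fell against untreated liver by 1.47 (limma adjusted p = 0.0228) and differed by -1.04 from AAV-GFP (limma adjusted p = 0.119). Acly, which supplies acetyl-CoA for fatty acid synthesis, differed by -0.52 from AAV-GFP (limma adjusted p = 0.254). Between AAV-GFP and untreated liver the list median was -0.26, with 17 of the 22 genes below 0, where 46.7% of all genes were. Fasn and Elovl6 were the 2 of 22 that passed for AAV-hGRβ against untreated liver. There the list median was -0.54 and that of all genes 0.10. With normexp background correction neither passed (limma adjusted p = 0.647 for Fasn and 0.488 for Elovl6), nor did either with slide as a random block (limma adjusted p = 0.104 and 0.131). Fasn passed in 13 of 20 alternatives and Elovl6 in 11 of 20, and the list median against AAV-GFP was 0.18 with normexp.

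**Figure D4:**
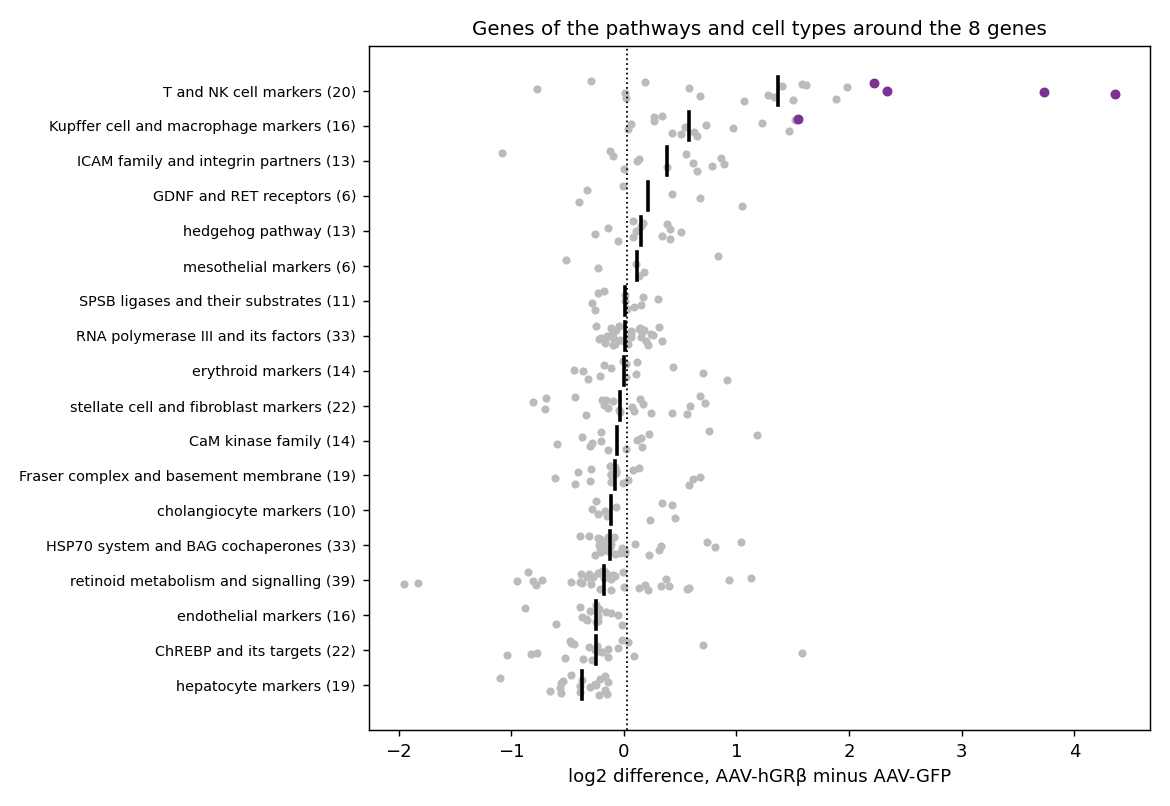
Log2 difference, AAV-hGRβ minus AAV-GFP (horizontal axis), of each tested gene in 18 lists, with the number tested in brackets. Each point is a gene, purple where it passed limma's adjusted threshold; black bars are list medians and the dotted line is the median of all genes. Purple points occur in the T and NK cell list (4) and the Kupffer cell and macrophage list (1).

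Markers of the liver's cell types are given beside the 8 genes, since the mix of cells can move with the groups. All 19 hepatocyte markers tested were lower with AAV-hGRβ than with AAV-GFP by mean, where 46.7% of all genes were, with a median of -0.37 and 0 past the threshold. The defining markers differed by -0.15 (Alb), -0.56 (Apoa1), -0.30 (Cps1) and -0.14 (Hnf4a). Tat, the tyrosine-degrading enzyme, had the smallest p (-1.10, limma adjusted p = 0.132) and fell against untreated liver by 1.28 (limma adjusted p = 0.0438), while Ass1 and Hpd differed by -0.57 and -0.54 from AAV-GFP. The summed linear signal of the list, in units of the array's 75th percentile, ran from 6110 to 7530 on AAV-GFP arrays, from 5310 to 7030 on untreated arrays and from 4830 to 5990 on AAV-hGRβ arrays. With normexp background correction the median turned to 0.39, and the call of Tat against untreated liver was lost (limma adjusted p = 0.725). Tat passed in 7 of 20 alternatives. The part of the hepatocyte shift in the values of the 8 genes was not tested.

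Immune cell lists held the only list genes that passed in this comparison. Of 20 T and NK cell markers tested, 4 rose with AAV-hGRβ against AAV-GFP and 0 fell, with a median of 1.36. Cd8a, the coreceptor of cytotoxic T cells, was near background on the AAV-GFP arrays (well above it on 0 of 3) and at least 12.6-fold higher with the receptor virus (limma adjusted p = 0.00848). The granzymes Gzma and Gzmb, enzymes of cytotoxic granules, rose by 3.73 (limma adjusted p = 0.0105) and 2.34 (limma adjusted p = 0.0312), and Nkg7, a granule protein, by 2.22 (limma adjusted p = 0.0404). With normexp background correction none of the 4 passed (limma adjusted p = 0.785 for Cd8a and 0.593 for the others) and the list median was -0.16. The log2 differences there were 0.37 for Cd8a, 1.52 for Gzma, 0.80 for Gzmb and 1.46 for Nkg7. The bound for Cd8a therefore holds only for the background subtraction as reported. When slide entered as a random block, Gzmb and Nkg7 did not pass (limma adjusted p = 0.138 for both). Cd8a passed in 17 of 19 alternatives, Gzma in 14 of 19, Gzmb in 9 of 20 and Nkg7 in 8 of 20. The summed linear signal of this list, which is set mainly by its brightest genes, overlapped between groups, from 20.9 to 24.5 with AAV-GFP and from 18.1 to 25.5 with AAV-hGRβ. The mean log2 signal of the list, which weighs each gene alike, did not overlap. It ran from -2.74 to -2.18 with AAV-GFP and from -1.68 to -0.90 with AAV-hGRβ.

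Of 16 Kupffer cell and macrophage markers, 1 rose, Mpeg1, a pore-forming protein of macrophages (1.55, limma adjusted p = 0.00667), and the median was 0.58. Mpeg1 passed in 17 of 20 alternatives, not with normexp (limma adjusted p = 0.303). The summed signal ran from 358 to 556 on AAV-hGRβ arrays, above the 165 to 339 of AAV-GFP arrays. Over all 18 lists, 5 of 324 genes passed between AAV-hGRβ and AAV-GFP (0.917% of all genes did), 16 against untreated liver (3.38% of all genes) and 0 between AAV-GFP and untreated liver. The part of the immune markers in the values of the 8 genes was not tested.

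For the cell types in which some of the 8 genes are known, markers did not pass between the AAV groups. Erythroid markers (14 tested, for Icam4) had a median of 0.00, with Alas2, the heme synthesis enzyme of red cells, at -0.32, Gypc at -0.36 and Add2 at 0.92. Add2 was well above background on 1 of 3 AAV-GFP arrays. Over the alternatives it ran from -0.80 to 1.21, Alas2 from -0.66 to 0.38 and Gypc from -0.71 to -0.11. The summed signal of the erythroid markers ran from 198 to 260 with AAV-GFP and from 119 to 236 with AAV-hGRβ. Stellate cell and fibroblast markers (22 tested) had a median of -0.03, with Lrat, which esterifies retinol for storage, at -0.81, Reln at -0.69 and Thy1 at 0.68. Their summed signal was 117 to 179 with AAV-GFP and 122 to 160 with AAV-hGRβ. Endothelial markers (16 tested) were all lower by mean, beside 46.7% of all genes, with a median of -0.25 that turned to 0.12 with normexp background correction. They were led by Tek (-0.88), Clec4g (-0.60) and Kdr (-0.37), and their summed signal was 43.7 to 74.5 with AAV-GFP and 41.7 to 50.2 with AAV-hGRβ.

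Mesothelial markers (6 tested, median 0.12) were led by Podxl (0.84), Krt18 (0.18) and Krt19 (-0.23). Over the alternatives Podxl ran from -0.44 to 1.14, Krt18 from -0.16 to 0.94 and Krt19 from -0.80 to 0.10. The defining marker Wt1 was not well above background on any array, and neither Wt1 nor the defining marker Upk3b was tested. Cholangiocyte markers (10 tested, median -0.11) were led by Sox9 (0.43), Spp1 (0.34) and Pkhd1 (-0.28). Another kept probe of Pkhd1 gave 0.07, and the kept probes of Sox9 ran from 0.39 to 1.37. The summed signals overlapped between the AAV groups, from 200 to 252 against 238 to 285 for mesothelial markers and from 22.0 to 26.6 against 22.8 to 35.4 for cholangiocyte markers. Krt18 (7.31 with AAV-GFP and 7.50 with AAV-hGRβ) and Krt8 (6.11 and 6.22) made up nearly all of the mesothelial sum. The defining marker Msln was at -0.80 and -1.31, so that sum is not read as a level of mesothelial cells. The part of mesothelial cells and cholangiocytes in the values of the 8 genes was not tested.

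The genes most like each of the 8 across the 9 arrays, by Pearson correlation among all genes tested with a symbol, are given as a description. Gas1 was most like Slc29a1 (0.983), a nucleoside transporter, and Fam222a (0.971). Fras1 was most like Llgl2 (0.971), a cell polarity protein, and Fam222a (0.970). Polr3g followed Pank1 (0.986), a pantothenate kinase, and Retsat (0.973). Icam4 and Spsb4 were each other's closest gene (0.969), followed by Sigirr (0.939) for Icam4 and Map1lc3a (0.967) for Spsb4.

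Camk2n2 was close to Cyp2c37 (0.973), a liver cytochrome P450. Bag2 was most like Spin1 (0.975) and Isoc1 (0.972), and Retsat like the chemokine Cxcl12 (0.992) and Anp32a (0.985). The differences of these genes between AAV-hGRβ and AAV-GFP were smaller in size than that of the gene they resemble, except for Icam4 beside Spsb4. They were, for example, -0.61 for Cxcl12 and -0.52 for Cyp2c37. The arrays share their groups, so such correlations include the difference between groups.

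The differences of the 8 genes from AAV-GFP were recomputed under 22 alternatives for each gene (fewer for Fras1, which a stricter filter removes). Leaving out arrays or taking a single scan day cannot turn the sign of genes chosen for groups that do not overlap. The Retsat difference was -0.13 with normexp background correction and -0.84 when bright local backgrounds were replaced first. Fras1 differed by -0.55 in the latter setting, and Icam4 by -0.69. Of the alternatives that gave a test, Polr3g was past the threshold in all but normexp background correction and the replicate block. With a random block for slide, 2 of the 8 genes were past it, namely Fras1 and Polr3g.

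**Figure D5:**
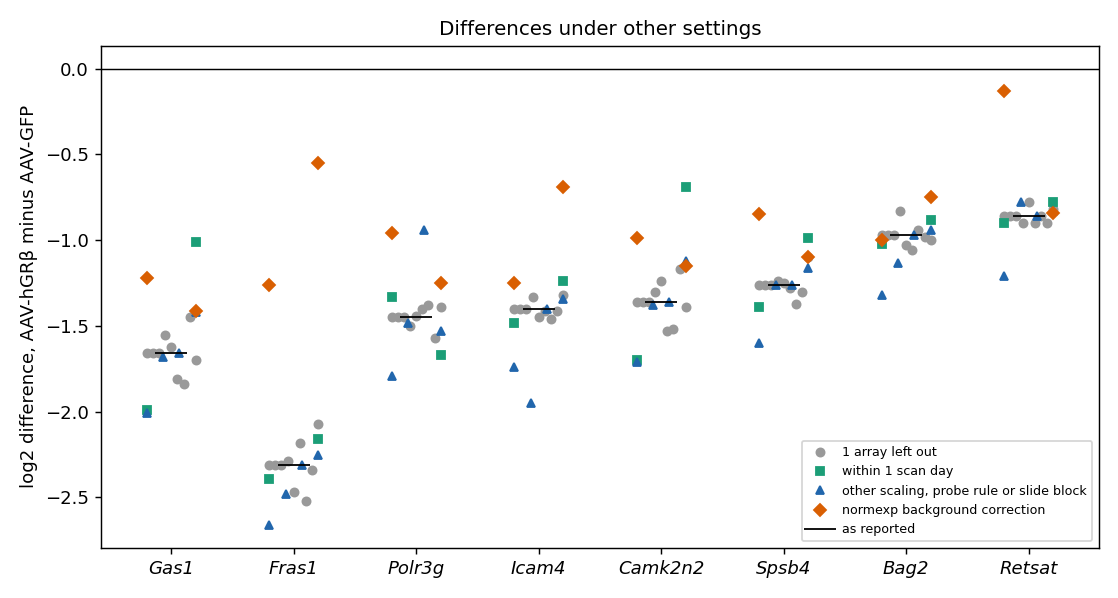
Log2 difference, AAV-hGRβ minus AAV-GFP (vertical axis), of the 8 genes as reported (black line) and under other settings: 1 array left out (grey), within 1 scan day (green), other scaling, probe rule or slide block (blue) and normexp background correction in 2 forms (orange). The nearest point to 0 is -0.13 for Retsat.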

How the data were processed

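Per the file headers, the processed intensity of a spot is linear and from the Cy3 dye alone. The scanner software had subtracted background and spatial trend on each array, with no scaling of arrays to each other, and was named by the submitters' processing notes as Agilent Feature Extraction, version 9.5. The deposited series table held the same intensity values (largest difference 0.0 from the array files). Control spots and outlier spots were left out and spots of a probe averaged. From each log2 intensity the 75th percentile of its array was subtracted.

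Kept were 24273 of 41174 probes, those marked well above background throughout 1 group or more, and the brightest stood for each of 16792 genes, of which 5475 had several. RefSeq names of GRCm38.p6 were matched through the accession for 22951 probes, the symbol for 6659, an older symbol for 3109 and the gene identifier for 294, and the file's own name was used for 8161. Positions of probes come from the files (mm7). Exons and untranslated regions were not assigned, since no annotation of that build was used here. Precision is limited by having 3 arrays per group. Over the 9 arrays, 3 spots were saturated.

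Groups were compared over all 9 arrays by two-sided limma tests (version 3.58.1, R 4.3.3) with 6 residual degrees of freedom from lmFit and eBayes, with Benjamini-Hochberg adjustment over all genes at 0.05. The steps were tested on simulated data. The 8 genes and the 18 gene lists (384 entries) were chosen with earlier results of these data known. Named list genes are those past the threshold between AAV-hGRβ and AAV-GFP, or else the 3 with the smallest p, together with the relatives of the 8 genes, the 2 genes most like each of them and genes that passed against untreated liver in the lists around Retsat and the hepatocyte and ICAM lists. The defining hepatocyte markers and the genes beside the edge of the choice were also named, and some genes that these rules took are not reported here. Motifs were searched in promoters from a RefSeq table.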

Additional observations from a re-analysis of the deposited data

How the results depend on the processing

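The number of genes past the threshold for AAV-hGRβ against AAV-GFP (154) was 14 with normexp background correction, 95 with scaling to the array median, 30 with no filter on dim probes, 260 with scan day as a block and 75 with slide as a random block. Against untreated liver the count (568) was 45 with normexp, 85 with no filter, 1256 with scan day as a block and 58 with slide as a random block. Between AAV-GFP and untreated liver the count (0) was 4 with the array median and 1 each with quantile normalization and scan day as a block. With normexp 0 genes were lower in the first or the second comparison, so all 14 and all 45 were higher. The share of higher genes moved from 91.6% to 81.1% with the array median in the first comparison. In the second it moved from 76.6% to 56.0% with the array median, to 60.0% with normexp after bright local backgrounds were replaced, to 62.7% with only probes above background on all 9 arrays, to 89.4% with no filter and to 93.1% with slide as a random block. The causes were not tested.

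Leaving out each array in turn gave 41 to 162 genes for AAV-hGRβ against AAV-GFP, 94 to 2150 against untreated liver and 0 to 1 for AAV-GFP against untreated liver. In the first comparison the count moved by over 1.5 times without AAV-GFP replicate 1 (41), AAV-hGRβ replicate 1 (46), AAV-hGRβ replicate 3 (49) or untreated replicate 4 (96). In the second it was 2150 without untreated replicate 2, 109 without untreated replicate 3, 98 without untreated replicate 4 and 248 without AAV-GFP replicate 2. Without AAV-hGRβ replicates 1, 2 and 3 in turn it was 324, 288 and 94. In the third it was 1 without untreated replicate 4.

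With the replicate number as a block the counts were 2, 1 and 0 in the 3 comparisons. Same-numbered AAV-GFP and AAV-hGRβ arrays deviated from their group means with correlations of 0.012, 0.242 and 0.006. For arrays with different numbers the correlations ran from -0.272 to 0.209. With 3 arrays per group, these values cannot settle whether the numbers pair the arrays.

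Of 175 alternative differences of the 8 genes from AAV-GFP, 25 moved by more than the SD between replicates. Their sign is no measure of stability, since the genes were chosen for groups that do not overlap. Past the adjusted threshold were 8 of the 8 genes as reported and with scan day as a block, 6 with the array median, 5 with quantile normalization and 5 with normexp after bright backgrounds were replaced. With slide as a random block 2 passed (Polr3g and Fras1), with no filter 1 (Polr3g), and with normexp or the replicate block 0. Without untreated replicates 2, 3 and 4 in turn 6, 4 and 2 passed, without AAV-GFP replicates 1, 2 and 3 it was 1, 2 and 5, and without AAV-hGRβ replicates 1, 2 and 3 it was 2, 2 and 1. Of 360 list medians under alternatives, 36 moved by more than the spread. Fras1 with AAV-hGRβ, like other probes near background, has only a bound, which holds for the background subtraction as reported.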
